A study of Homo sapiens with 4 samples.

Results

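The G1 cyclins and their kinases were followed across 4 whole-transcript expression arrays as 8 genes, namely the D cyclins CCND1, CCND2 and CCND3, the E cyclins CCNE1 and CCNE2, and the kinases CDK2, CDK4 and CDK6. They were chosen by gene symbol, and each symbol matched 1 of the 65528 transcript clusters (sets of probes that read 1 locus), out of 22393 genes with a cluster of their own. No cluster was shared between any of the 8 and another gene (0 clusters). The arrays measured total RNA of cells labelled as the human multiple myeloma lines OPM2 and KMS11. Each line had 1 array of cells given no agent and 1 array of cells given KPT-9274 for 48 h, an orally available inhibitor of the kinase PAK4 and of NAMPT, an enzyme of NAD salvage. The labels give no dose, no vehicle and no time for the controls. The comparison of treated with control arrays asks how transcripts stood after the compound, and the compound cannot be told apart from time in culture.

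D cyclins are made in response to growth signals and bind CDK4 or CDK6, and these complexes phosphorylate the retinoblastoma protein RB1 and its relatives early in G1. E2F factors are thereby freed, E cyclins accumulate and bind CDK2, and the cell passes into S phase. In multiple myeloma, overexpression of a D cyclin is an early and nearly universal event. CCND1 and CCND3 are activated there by translocation to an immunoglobulin locus, while CCND2 is typically high in tumours with translocations of MAF or of FGFR3 and NSD2.

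Values are log2 signal, so a difference of 1 is a factor of 2. As a measure of background, the 95th percentile of 392 olfactory receptor genes was 6.81 for untreated and 7.65 for treated OPM2 cells, and 6.45 for untreated and 6.56 for treated KMS11-labelled cells. The arrays labelled KMS11 went against their label. MAF, a translocation target in KMS11 cells, read 5.68 and 5.86 on them, under background. Of 10 plasma cell markers 4 were above background on each of these arrays, against 8 and 7 on the OPM2 arrays. Of 7 erythroid and megakaryocyte markers 6 were above background there, and of 9 myeloid and mast cell markers 7, while on the OPM2 arrays at most 1 of either list was. Of 8 T and NK cell markers 1 was above background on each KMS11-labelled array and 0 in OPM2. These arrays are called KMS11-labelled, and each change is given for OPM2 alone beside them. Each line has a single array per treatment, so its own change has no test. The lines served as the only replicates of the treatment (n = 2), and the labels do not speak of separate cultures.

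Cyclin D2 was the D cyclin of these cells that lay far above background on every array, and it read lower after KPT-9274 in both lines. CCND2 read 14.69 in untreated and 12.96 in treated OPM2 cells, and 12.23 in untreated and 10.41 in treated KMS11-labelled cells. Both OPM2 values lay above both KMS11-labelled values, and within each line the treated array was the lower. The change, treated minus control, was -1.73 in OPM2 and -1.82 on the KMS11-labelled arrays, so CCND2 was 3.32-fold and 3.53-fold lower. In these bulk samples, fewer cells of a type and less RNA per cell cannot be told apart. Of the 16790 genes tested, 70 had a more negative change in OPM2 and 122 on the KMS11-labelled arrays. Ranked by the smaller of the changes of both lines, 10 genes were lower than CCND2 in both. A limma fit over the 4 arrays, with line and agent as terms, gave a mean change of -1.78 ± 0.18 (SE, 95% interval -2.27 to -1.28). After Benjamini-Hochberg adjustment over all genes p was 0.325, so the change did not pass the threshold of 0.05.

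The other D cyclins were dim. CCND1 read 6.04 in untreated and 6.05 in treated OPM2 cells, and 5.98 in untreated and 6.18 in treated KMS11-labelled cells. All these values are under the background of their array, so neither a change nor a difference between lines can be read. CCND3, a D cyclin with a large part in lymphoid cells, read 6.49 and 6.27 on the control and treated OPM2 arrays, both under background. In KMS11-labelled cells it read 8.07 untreated and 7.26 treated, both above background. The KMS11-labelled change was -0.81, a 1.75-fold lower value, and 1152 of the tested genes (6.86%) had a more negative one.

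**Figure D1:**
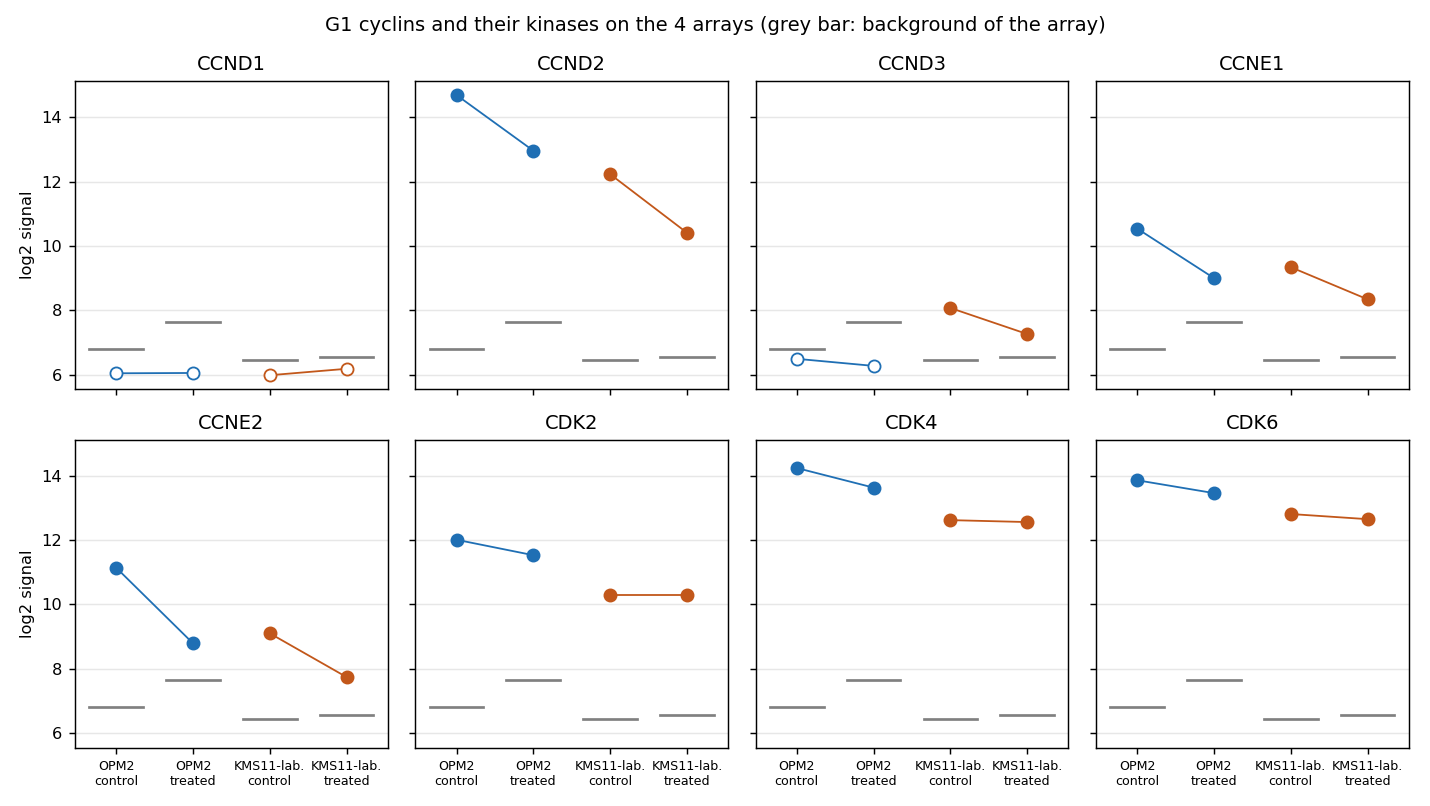
Log2 signal of each of the 8 genes on the 4 arrays (1 point per array, blue for OPM2 and orange for KMS11-labelled, open where the value is not above background), with the background of each array as a grey bar. CCND2, CCNE1 and CCNE2 step down from control to treated in both lines, CDK2, CDK4 and CDK6 are nearly level on the KMS11-labelled arrays, and CCND1 lies under background throughout.

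The E cyclins, which activate CDK2 at the entry to S phase, were also lower after treatment in both lines. CCNE2 read 11.14 in untreated and 8.79 in treated OPM2 cells, and 9.10 in untreated and 7.74 in treated KMS11-labelled cells. The treated OPM2 value lay below the KMS11 control value, so here the lines overlapped. The change was -2.35 in OPM2 (5.10-fold lower) and -1.36 on the KMS11-labelled arrays (2.57-fold lower). In OPM2 12 of the tested genes had a more negative change than CCNE2, and on the KMS11-labelled arrays 333. Limma gave a mean change of -1.86 ± 0.31 (SE, 95% interval -2.73 to -0.98) and an adjusted p of 0.325.

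CCNE1 read 10.54 in untreated and 9.0 in treated OPM2 cells, and 9.34 in untreated and 8.34 in treated KMS11-labelled cells. Again the treated OPM2 value lay below the KMS11 control value. The change was -1.54 in OPM2 (2.91-fold lower) and -1.0 on the KMS11-labelled arrays, which is exactly the 2-fold line. Under quantile normalization the KMS11-labelled change was -0.78, and after cyclic loess it was -0.92, both short of that line. Limma gave -1.27 ± 0.22 (SE, 95% interval -1.90 to -0.64) and an adjusted p of 0.325. The CCNE1 promoter is known as GC-rich and without a TATA box. The bases before its start are shown because CCNE1 is a member with a lower value after treatment in both lines for which the RefSeq table holds this region. The 250 bases lie at chr19:29811741-29811990 on the plus strand of GRCh38.p14, and capitals mark each GC box (GGGCGG or its complement), the letters bound by SP1.

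CCNE1 upstream: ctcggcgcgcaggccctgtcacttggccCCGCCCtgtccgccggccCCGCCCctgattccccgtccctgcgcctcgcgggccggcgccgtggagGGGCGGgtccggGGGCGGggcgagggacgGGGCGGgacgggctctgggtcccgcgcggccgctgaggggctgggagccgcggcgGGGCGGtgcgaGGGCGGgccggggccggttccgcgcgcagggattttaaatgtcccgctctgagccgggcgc

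The stretch holds 7 GC boxes and 81.2% G or C. Of the 35116 upstream regions of the same length in the table, 42.6% hold at least 1 GC box. The core of the E2F motif, searched on both strands as TT, then any 2 letters of G or C, then CGC, had 0 matches in it, against 10.9% of all regions with at least 1. A match is a description of the letters and does not show binding. Variants of these letters and bases outside the stretch were not searched, so 0 matches do not show that E2F sites are absent.

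Of the kinases, the D cyclin partners CDK4 and CDK6 and the E cyclin partner CDK2 were all well above background on every array, and their changes were smaller than those of the cyclins above background. CDK4 read 14.24 in untreated and 13.63 in treated OPM2 cells, and 12.62 in untreated and 12.56 in treated KMS11-labelled cells. Its change was -0.61 in OPM2 and -0.06 on the KMS11-labelled arrays, and the latter turned to 0.04 under quantile normalization and 0.03 after cyclic loess. CDK6 read 13.86 and 13.46 in OPM2, and 12.81 and 12.65 on the KMS11-labelled arrays, the control first. Its changes were -0.40 and -0.16. CDK2 read 12.01 in untreated and 11.53 in treated OPM2 cells, and 10.28 on both KMS11-labelled arrays. Its changes were -0.48 and 0.00, the latter with a sign that varied with the scaling, from -0.08 under median centring to 0.18 under quantile normalization. For each kinase the 4 values kept the lines apart, with both OPM2 arrays above both KMS11-labelled arrays.

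By limma the mean treatment change was -0.34 ± 0.22 (SE) for CDK4, -0.28 ± 0.18 for CDK6 and -0.24 ± 0.21 for CDK2. The adjusted p was 0.575, 0.570 and 0.646 in that order, and each 95% interval held 0, from -0.97 to 0.30 for CDK4, from -0.80 to 0.24 for CDK6 and from -0.85 to 0.37 for CDK2. In OPM2 14.2% of the tested genes had a more negative change than CDK4, 18.8% than CDK2 and 22.2% than CDK6.

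CDK4 is a textbook target of MYC, which binds the E-box CACGTG. MYC itself read 13.70 and 12.44 on the control and treated OPM2 arrays and 12.64 and 9.81 on the KMS11-labelled ones, changes of -1.26 and -2.83 (limma adjusted p = 0.328). The CDK4 changes were -0.61 in OPM2 and -0.06 on the KMS11-labelled arrays, and the part of MYC in them was not tested. The 250 bases before the CDK4 start are shown for their E-boxes. They lie at chr12:57752311-57752560 on the minus strand of GRCh38.p14, in the RefSeq table, and capitals mark the E-boxes CACGTG and the GC boxes (GGGCGG or its complement CCGCCC).

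CDK4 upstream: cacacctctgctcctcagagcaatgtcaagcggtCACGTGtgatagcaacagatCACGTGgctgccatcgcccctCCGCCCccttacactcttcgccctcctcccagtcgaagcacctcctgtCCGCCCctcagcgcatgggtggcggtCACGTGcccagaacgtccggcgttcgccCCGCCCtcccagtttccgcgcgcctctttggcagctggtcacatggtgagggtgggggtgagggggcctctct

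The stretch holds 3 E-boxes, which begin 216, 196 and 101 bases before the start, beside 3 GC boxes and 0 of the E2F core letters. Of the 35116 upstream regions, 6.34% hold at least 1 E-box. The table held upstream regions for 4 of the 8 genes, 7 regions in all. None of the regions of CCND3, CDK6 and CCNE1 held CACGTG, and those of CCND3 and CDK6 held 0 of the E2F core letters. As for CCNE1, a count of 0 does not show that E2F sites are absent.

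Set side by side, 6 of the 8 genes were above background on every array, and of these 5 were lower in both lines, with CDK2 level on the KMS11-labelled arrays. Of all tested genes 27.9% were lower in both lines, and of the 6672 tested genes that were likewise above background on every array 40.3% were. Median centring raised these shares to 45.5% and 51.0%, and 6 of the 6 members were then lower in both lines. Cyclic loess gave 38.8% and 36.2%, with 4 members lower, and quantile normalization gave 32.9% and 31.2%, also with 4. At least 2-fold lower in both lines were 3 of the 6, CCND2, CCNE1 and CCNE2, against 1.19% of all tested genes and 2.08% of those above background on every array. In OPM2 alone 6 of the 6 were lower, as were 47.5% of all tested genes and 65.1% of those above background, and 3 of the 6 were at least 2-fold lower (5.52% of tested genes). On the KMS11-labelled arrays 5 were lower, against 44.4% and 50.1%, and 3 at least 2-fold (4.43% of tested genes). The shares of 5.52% and 4.43% are over all tested genes, dim ones included, and were not counted over those above background. The median change of the 6 members was -1.08 in OPM2 and -0.58 on the KMS11-labelled arrays, against -0.21 and -0.01 over the 6672 genes. Median centring of the arrays moved the median change of all tested genes from 0.03 and 0.04 to -0.29 and -0.04, and the 3 cyclins then had -2.05 and -1.90 (CCND2), -1.86 and -1.08 (CCNE1), and -2.67 and -1.44 (CCNE2). The array medians used for centring, 5.75 and 6.07 in OPM2 and 5.68 and 5.76 on the KMS11-labelled arrays, all lay under background. The treated OPM2 array also had the fewest genes above background, 6998, against 9607 on its control and 10636 and 10232 on the KMS11-labelled arrays. The part of this in the OPM2 changes was not tested.

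No gene passed the test of the treatment. Limma called 0 of 16790 genes (0.0%) in either direction, with 0 of the 8 among them, while at an unadjusted p below 0.05 there were 1453 lower genes (8.65%) and 666 higher genes (3.97%). CCND2, CCNE1 and CCNE2 belong to those 1453. The fit has 1 residual degree of freedom. Its only residual is the gap in response between the lines, in which line-specific response and noise between arrays cannot be told apart. The change of CCNE2 was 0.99 less negative on the KMS11-labelled arrays than in OPM2 and that of CCNE1 0.54 less, a difference that could not be tested.

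**Figure D2:**
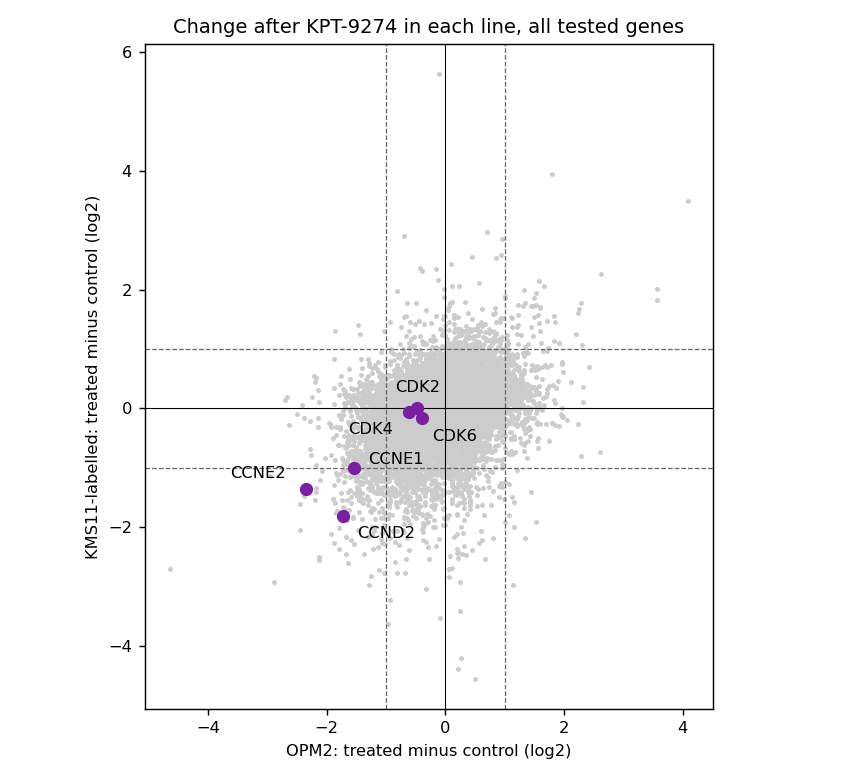
Change after KPT-9274 on the log2 scale in OPM2 (horizontal axis) and on the KMS11-labelled arrays (vertical axis) for 16790 tested genes (grey) and the 6 members above background on every array (purple), with dashed lines at 2-fold. CCND2, CCNE1 and CCNE2 lie in the lower left corner at or past 2-fold in both lines, and the 3 kinases lie near the centre.

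The second comparison sets the lines against each other. The control and treated arrays of a line served as its only replicates. The errors and p-values below show how alike the gap was on control and treated arrays, not the spread between cultures. In the same fit, KMS11-labelled minus OPM2 over control and treated arrays, limma called 5 of the 8 genes lower, where 8.28% of all tested genes were called lower, and 1 higher, where 10.8% were. The 5 were above background on every array, while both shares are over all tested genes, dim ones included, and so are not matched. At least 2-fold lower on the control and on the treated arrays were 4 of the 6 genes above background, CCND2, CCNE2, CDK2 and CDK4. Of all tested genes 6.69% were, a share that includes genes under background and so is not a matched one. The CCND2 difference was -2.46 on the control arrays and -2.55 on the treated arrays, with a mean of -2.51 ± 0.18 (SE, adjusted p = 0.00928), so that the OPM2 value was 5.50-fold and 5.86-fold the KMS11-labelled one. CDK2 differed by -1.49 ± 0.21 (SE, adjusted p = 0.0262) and CDK4 by -1.35 ± 0.22 (adjusted p = 0.0340). CCNE2 differed by -1.55 ± 0.31 (adjusted p = 0.0470) and CDK6 by -0.93 ± 0.18 (adjusted p = 0.0467). CCNE1 had the same difference of -0.93 with a wider error of 0.22 and did not pass (adjusted p = 0.0666).

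The gap of the E cyclins was wider on the control arrays, at -2.04 for CCNE2 and -1.20 for CCNE1, than on the treated arrays, at -1.05 and -0.66. The kinases showed the same order, with -1.73 and -1.25 for CDK2, -1.62 and -1.07 for CDK4, and -1.05 and -0.81 for CDK6. By arithmetic this restates the less negative treatment changes on the KMS11-labelled arrays and is not a separate result. CCND3 differed between the lines with the opposite sign. Its difference of 1.29 ± 0.23 (SE, adjusted p = 0.0391) used OPM2 values under background, and against background CCND3 was at least 1.35-fold higher over the KMS11-labelled arrays and at least 2.39-fold higher on the control arrays. The treated arrays give no bound, since the KMS11-labelled value of 7.26 lay under the OPM2 background of 7.65. The marker counts given above differ between the lines in the same arrays, and their part in these differences was not tested.

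CDK2 and CDK4 were called in 9 of 9 fits, the one reported above and those with other normalizations, filters and models. Without a term for the agent, CCND2 lost its call (adjusted p = 0.102), as did CCND3 (0.0593), CCNE2 (0.305) and CDK6 (0.0621). Without the filter on dim genes CCND3 (0.0531), CCNE2 (0.0685) and CDK6 (0.0543) lost theirs, and CDK6 did so too under median centring (0.0956) and with a trended and robust prior (0.0593). CCNE1 passed under quantile normalization (0.0293), after cyclic loess (0.0480) and with the dimmest 50% of genes left out (0.0473).

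**Figure D3:**
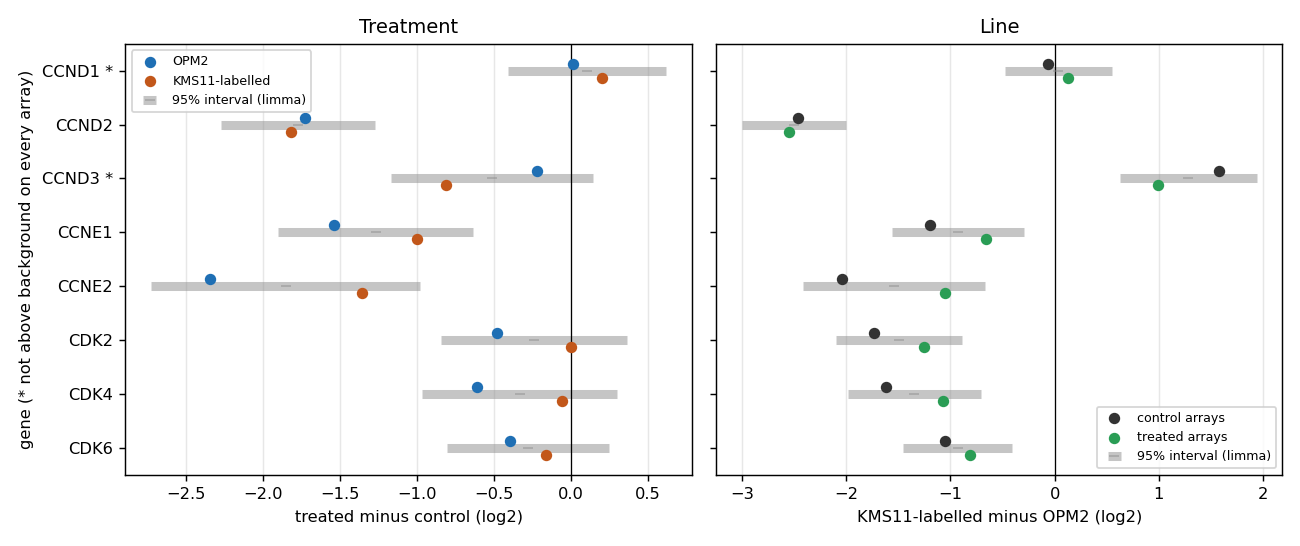
Differences on the log2 scale for the 8 genes. On the left, treated minus control in OPM2 (blue) and on the KMS11-labelled arrays (orange), and on the right, KMS11-labelled minus OPM2 on the control (dark) and treated (green) arrays, each with the 95% interval of the limma fit in grey. The intervals of CCND2, CCNE1 and CCNE2 lie below 0 on the left before adjustment for all genes, and on the right all genes but CCND1 and CCND3 lie below 0.

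Around these genes stand the regulators and targets of the G1 to S step, counted among tested genes above background on every array, and 0 of them passed the treatment test. Over the 6672 such genes 40.3% were lower and 24.6% higher in both lines. Median centring changed this to 51.0% and 12.2%, quantile normalization to 31.2% and 28.6%, and cyclic loess to 36.2% and 27.2%. Over all tested genes the shares were 27.9% lower and 34.9% higher, a balance that turned round to 45.5% and 13.3% with median centring, 38.8% and 19.6% with cyclic loess, and 32.9% and 21.2% with quantile normalization. The E2F and DP factors, which drive S phase genes, had 6 of 8 members lower and 0 higher in both lines under every scaling tried, and their median changes were -0.70 in OPM2 and -0.58 on the KMS11-labelled arrays. E2F2, an activator, had -1.79 and -0.61, and E2F4 and E2F6, which mostly repress, had -0.90 and -0.60 and -0.58 and -0.67. Of the S phase targets of E2F, 9 of 13 were lower in both lines and 1, CCNA2, was higher, with medians of -0.87 and -0.29. After quantile normalization or cyclic loess 8 of 13 were lower, and CCNA2 was no longer higher in both lines after quantile normalization or median centring. CDC6, which loads the replicative helicase, had -1.40 and -1.28, the helicase subunit MCM6 -1.22 and -0.78, and the sliding clamp PCNA -0.87 and -0.88.

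The later cyclins went the other way. Of the tested cyclins of S, G2 and M phase with CDK1, 5 of 5 were higher and 0 lower in both lines. Their medians were 0.42 and 1.53, and under median centring and under quantile normalization 4 of 5 were. CDK1, the mitotic kinase, had 0.80 and 1.59, and its partners CCNB1 and CCNB2 had 0.61 and 1.67 and 0.42 and 1.34. Among pocket proteins, the substrates of the cyclin D kinases, 2 of 3 were lower in both lines. RBL1 had -1.10 and -1.38 and RBL2 -1.16 and -0.37. RB1 read 11.07 and 10.40 in OPM2 and 11.29 and 11.80 on the KMS11-labelled arrays, and so differed in sign.

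CDK inhibitors were mostly dim, and of 6 tested only CDKN1B was above background on every array, so no direction is given for the list. CDKN1B, the inhibitor of CDK2 complexes, read 10.65 and 10.81 in OPM2 and 9.42 and 10.49 on the KMS11-labelled arrays, changes of 0.16 and 1.07, and the OPM2 change was -0.16 under median centring. CDKN1A, a p53 target, was under background on both OPM2 arrays and on the KMS11-labelled ones read 6.34 and 6.51, also under it.

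Genes that govern the turnover of D and E cyclins had 4 of 8 members lower and 2 higher in both lines, with 1 higher under median centring. The medians were -0.23 in OPM2 and -0.01 on the KMS11-labelled arrays, the latter being 0.18 under quantile normalization and 0.06 after cyclic loess. SKP2, the ubiquitin ligase subunit that removes CDKN1B, had -1.80 and -0.61, its cofactor CKS1B 1.14 and 0.81, and CUL3, a scaffold of ligases that act on cyclin E, -0.76 and -1.41. Of the CDK-activating kinase genes with CDC25A and WEE1, 1 of 5 was lower and 1 of 5 higher in both lines, and the medians were 0.00 and 0.23. Median centring gave 2 lower and 0 higher, quantile normalization 0 lower and 2 higher, and cyclic loess 1 lower and 3 higher. CDC25A, the phosphatase that activates CDK2, had -1.37 and -0.10 (0.07 on the KMS11-labelled arrays under quantile normalization), and CDK7 had 0.07 and 0.72 (-0.25 in OPM2 under median centring).

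Known upstream regulators of D cyclins in myeloma and B lineage cells had 4 of 5 members lower and 0 higher in both lines, with medians of -1.10 in OPM2 and -0.17 on the KMS11-labelled arrays. Under median centring 5 of 5 were lower, after cyclic loess 3, and under quantile normalization 3 were lower and 1 higher. Without such scaling NSD2 counted as lower with -0.80 in OPM2 and only -0.01 on the KMS11-labelled arrays. Besides MYC, the receptor FGFR3 had -1.10 and -0.60, and IRF4, on which plasma cells depend, -2.38 and -0.16. IRF4 read 14.26 in untreated OPM2 and 6.75 in untreated KMS11-labelled cells, the latter barely above background. MAF, which drives CCND2 in myeloma, read 12.11 and 10.87 in OPM2, a change of -1.24. On the KMS11-labelled arrays MAF was under background, and the part of MAF in the level of CCND2 was not tested.

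**Figure D4:**
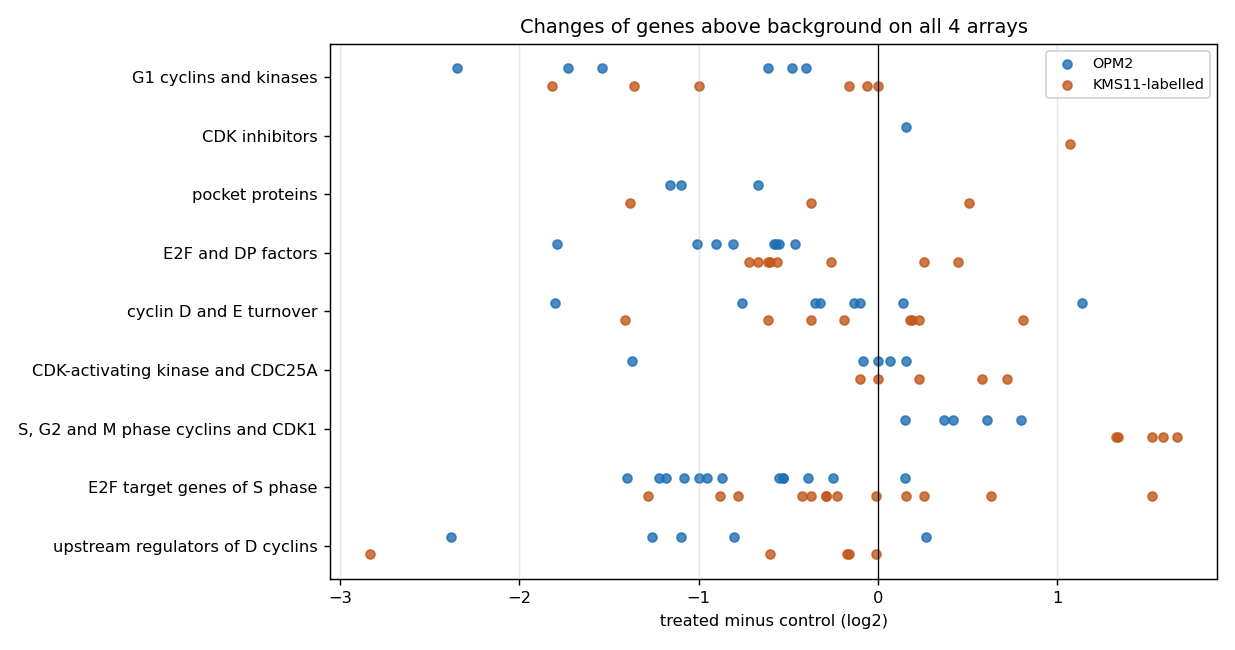
Change after KPT-9274 on the log2 scale for genes above background on all 4 arrays, 1 row per list and 1 point per gene and line (blue for OPM2, orange for KMS11-labelled). The S, G2 and M phase cyclins with CDK1 lie right of 0 in both lines, while most E2F factors and S phase targets lie left of it, as do the G1 cyclins and kinases, CDK2 being at 0 on the KMS11-labelled arrays.

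Across the 4 arrays the members differed in profile, and cyclins and kinases were not cleanly apart. Likeness was measured as the root mean square difference between log2 values after each gene was centred on its own mean over the 4 arrays. CDK2 and CDK4 were the closest pair, 0.09 apart, and CDK6 lay 0.22 from CDK4. The E cyclins were 0.44 apart, and CCND2 lay nearest to CCNE2, 0.55 apart. CCNE1 lay 0.50 from CDK6, 0.51 from CDK4 and 0.59 from CDK2, not far beyond its distance to CCNE2. Many genes outside the group shared the profile of the kinases, with 260 tested genes within 0.2 of CDK2, 309 of CDK4 and 628 of CDK6. Within the same distance there were 36 genes for CCNE1, 1 for CCND2 and 0 for CCNE2. The distances were not scaled to the span of a gene's values over the 4 arrays. That span was 1.21 for CDK6, 1.68 for CDK4, 1.73 for CDK2, 2.2 for CCNE1, 3.4 for CCNE2 and 4.28 for CCND2. A distance of 0.2 is a smaller part of a wider span, so the counts do not show which profile is rarer. The genes closest to CCND2 were SLC35B4 (0.16), ISG20L2 (0.22) and NEMP1 (0.26). Those closest to CCNE1 were SLC7A6 (0.05), RXYLT1 (0.05) and POLR1G (0.07), and those closest to CCNE2 were EEF2KMT (0.21), FERMT1 (0.25) and TTPAL (0.25). For CDK2 they were PSMA5 (0.03), RNA5SP157 (0.04) and DCC, and for CDK4 AFDN (0.02), HELB (0.02) and TTN. For CDK6 they were TNFRSF10B (0.01), CA5BP1 (0.03) and BUD23 (0.04). DCC and TTN were above background on 1 array each, so no distance is given for them, and those of TTPAL (above background on 2 arrays) and TNFRSF10B (on 3) rest in part on values under background. The counts within 0.2 likewise include genes under background. The distances describe 4 arrays and rest on 1 array for each line and treatment.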

How the data were processed

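The authors deposited log2 signal of 4 whole-transcript arrays; the submitters' processing notes name the Transcriptome Analysis Console. How signals were summarized and normalized, and on which build, is not given in the sources used here. Values of 2.49 to 19.74 show the log2 scale. The number of arrays limits the precision. Per the labels' protocols the miRvana kit gave the RNA and the WT Plus kit the biotinylated targets.

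Of 65528 clusters, 22755 carry 1 gene symbol, 1389 several and 41384 none in the platform annotation; symbols were updated through RefSeq names (GRCh38.p14). The cluster with the highest mean stood for a gene, and the dimmest 25% of genes (mean log2 signal of at most 5.40) were left out. No further normalization was applied before limma 3.58.1 in R 4.3.3 (lmFit, eBayes, line and agent as terms, two-sided, Benjamini-Hochberg over 16790 genes). The fit was also run on simulated arrays with the same change in both lines and no line-specific response. Such arrays differ from these, so that run does not show how the fit performs here. The line was the block, because both arrays of a line come from its cells. Alternatives were other normalizations, filters, priors, models and background percentiles. Members and lists were chosen with earlier results of these data known. Besides the members, the text names up to 3 genes per list that changed one way in both lines. They were ranked by the smaller change and lay above background in each line. The text also names the 3 closest profiles per member above background. MAF, RB1, CDKN1A, CCNA2 and NSD2 were named after their values were seen. Motifs were chosen after the sequences were seen.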

Additional observations from a re-analysis of the deposited data

How the results depend on the processing

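The direction of the treatment change was the same under 3 other scalings for each member above background on average over both lines, and 0 of 8 members passed in any fit, with adjusted p from 0.0631 to 1.0 for CCND2. Under quantile normalization 2 genes passed as higher and 3 as lower after treatment, none of them a member. The fit without the line as replicate block called 0 genes and 0 members by limma, with 121 higher and 354 lower genes at an unadjusted p below 0.05. Leaving out a line only gives back the change of the other line, reported above, and is no separate support. Those values, without OPM2 first, have no test and were -1.82 and -1.73 for CCND2, -1.36 and -2.35 for CCNE2, and -1.0 and -1.54 for CCNE1. The count of members lower in both lines was 4 under quantile normalization and cyclic loess and 6 under median centring, against 5, and that of members at least 2-fold lower was 2 under the former pair, against 3. Between lines, 0 members were higher and 3 lower without a filter, and 0 higher and 2 lower without the agent term, against 1 and 5. CCND1, which is under background, turned to -0.074 (quantile), -0.095 (median centring) and -0.107 (cyclic loess) for the treatment and to -0.06 for the line on controls only. The cause of these shifts was not tested. Counts of members from each line alone were added after seeing the data. The 6 members above background stayed so at the 90th and 99th percentile.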
